A study of Homo sapiens with 19 samples.

Results

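Matrix metalloproteinases (MMPs) and their tissue inhibitors (TIMPs) were followed as 10 genes chosen by name, MMP1, MMP2, MMP7, MMP9, MMP12, MMP14, MMP19, TIMP1, TIMP2 and TIMP3, out of 31033 gene names on the array. These genes and the gene lists below were chosen with earlier results of these data known. Counts of calls set beside those of all genes therefore describe them and are no test. The cells were THP-1, a human line grown from a monocytic leukaemia and widely used as a macrophage model. In every group they were differentiated by phorbol myristate acetate (PMA) at 30 nM over 16 to 18 h, then rested in fresh medium for 2 to 3 h. Flasks of the vit C groups then received 0.1 mM vitamin C (vit C), whereas the untreated (UT) flasks received none, and total RNA was taken 8, 24, 48 and 96 h later. The UT groups held 2, 3, 2 and 3 one-colour arrays and the vit C groups 3, 2, 2 and 2 at these times, 19 arrays in all. Each array came from a flask of its own, but all flasks held 1 cell line, so p-values measure the spread between flasks of that line. No group went without PMA.

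MMPs are zinc-dependent endopeptidases, made as inactive proenzymes and either secreted or anchored in the plasma membrane, which between them cleave most proteins of the extracellular matrix. TIMPs are small proteins that bind the active site of MMPs and block it. Macrophages are a major source of both families, and phorbol esters are classical inducers of several of these genes.

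Levels are given as the log2 background-subtracted signal of an array minus the 75th percentile of that array, so that 0 is the 75th percentile. The 10 genes had 14 probes, 7 of the genes having 1 each, and each gene is given by its brightest, which was well above background on all 19 arrays for every member. Of 12 macrophage markers, 11 were on the array and 9 were well above background on all arrays, as were 2 of the 4 lymphocyte markers. In bulk RNA, fewer cells of a type and less RNA per cell cannot be told apart.

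The arrays lay on 4 slides. UT cells of 8, 24 and 48 h and 1 UT array of 96 h (replicate 1) shared slide 1, whereas slide 2 held the other 2 UT arrays of 96 h, all vit C arrays of 8 and 24 h and 1 of 48 h (replicate 1). The second vit C array of 48 h was alone on slide 3. Both vit C arrays of 96 h were on slide 4, which was scanned on another day, and their 75th percentile signals were 786.5 and 902.3 against 290.2 to 625.3 on the other arrays. No vit C group shared a slide with its UT group, so slide and treatment cannot be separated within a slide at any time, and at 96 h slide, scan day and treatment cannot be told apart. In contrast, UT cells of 8, 24 and 48 h can be compared within slide 1, and vit C-treated cells of 8 and 24 h within slide 2.

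The probes through which 4 members were read are shown because their differences are described most closely: MMP2 with its inhibitor TIMP2, and MMP7 and TIMP1. Each 60-base sequence is written as on the array, has at least 1 forward reading frame without a stop codon, and is listed in the array files without a genome position.
MMP2: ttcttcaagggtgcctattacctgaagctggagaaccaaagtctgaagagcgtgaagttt
MMP7: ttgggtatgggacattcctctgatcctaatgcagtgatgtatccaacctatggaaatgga
TIMP1: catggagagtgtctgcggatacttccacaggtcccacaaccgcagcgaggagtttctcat
TIMP2: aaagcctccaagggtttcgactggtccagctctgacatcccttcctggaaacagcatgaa

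RefSeq promoter sequences (GRCh38.p14) were matched for 4 of the 10 members, MMP7, MMP14, TIMP1 and TIMP3. The 250 bases before the start of MMP7 and of TIMP1 are printed because these genes had the widest rises over time of the 4. Capitals mark the letters of 3 motifs looked for on both strands: TGACTCA, the site of AP-1, through which phorbol esters act; AGGAAG, bound by PEA3 and other ETS factors; and TATAAA, the TATA box.
MMP7, chr11:102530748-102530997, minus strand: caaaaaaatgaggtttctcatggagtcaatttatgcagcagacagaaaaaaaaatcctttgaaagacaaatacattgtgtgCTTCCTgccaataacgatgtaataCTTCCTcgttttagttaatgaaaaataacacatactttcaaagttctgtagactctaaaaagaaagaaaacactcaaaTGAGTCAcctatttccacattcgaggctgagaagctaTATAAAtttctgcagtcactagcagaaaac
TIMP1, chrX:47582186-47582435, plus strand: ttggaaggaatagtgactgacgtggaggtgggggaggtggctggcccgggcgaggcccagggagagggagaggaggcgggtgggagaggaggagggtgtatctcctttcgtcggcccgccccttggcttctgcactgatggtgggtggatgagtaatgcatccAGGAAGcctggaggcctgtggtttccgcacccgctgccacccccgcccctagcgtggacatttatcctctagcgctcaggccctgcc
The window of MMP7 held 1 AP-1 match beginning 67 bases before the start, 2 AGGAAG matches beginning at 169 and 145 bases, all read on the opposite strand, and a TATA match 30 bases before it. That of TIMP1 held 1 AGGAAG match, 87 bases before the start, and those of MMP14 and TIMP3 held none of these letters. Of 35116 promoter windows of the same length, 4.2% held the AP-1 letters, 28.7% AGGAAG and 10.7% TATAAA. Only exact letters were looked for, so a site that differs from them in any letter was not counted, in TIMP1 as elsewhere. A match is only a match of letters, and binding was not measured.

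With vit C, transcripts of MMP1, an interstitial collagenase, fell at 24 and 48 h, and those of TIMP1, the inhibitor of most secreted MMPs, fell at 48 and 96 h. MMP12, the macrophage elastase, fell at 48 h, while MMP2, gelatinase A, rose at 96 h. MMP7, matrilysin, rose at 24 h and fell at 96 h. A gene was called when at least 1 of its probes changed 2-fold or more, a log2 fold change of 1 either way, with a limma adjusted p (q) over all probes no higher than 0.05, after genes whose probes moved in opposite directions were removed.

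At 8 h no member was called by limma, against 0.553% of all genes tested, and 5 members had an unadjusted p below 0.05, as had 12.2% of all genes. The methods' t-test called 0 members at each of the 4 times, 24, 48 and 96 h included. At 24 h 2 of 10 were called (1.68% of all genes), 1 higher and 1 lower. At 48 h 3 of 9 tested were called, all lower (3.65% of all genes), and TIMP2 as well when opposing probes were kept. At 96 h 4 of 10 were called, 1 higher and 3 lower, where 12.8% of all genes were, 721 of them higher and 2653 lower. That count of 3374 genes was 469 without vit C replicate 1 of 96 h, 528 without replicate 2, 1390 and 1173 without UT replicates 1 and 2, and 5997 without UT replicate 3, so that this background moves with single arrays. Over the average of the 4 times, 1 of 9 tested was called (3.49% of all genes), and 7 of the 10 members had a negative average. The median log2 fold change of the members was -0.40, -0.40, -0.92 and -0.40 at 8, 24, 48 and 96 h, beside -0.05, -0.13, -0.02 and -0.15 for all genes. Arrays of UT and vit C-treated cells did not overlap for 39%, 30.2%, 50.6% and 36.8% of all genes at these times, so that lack of overlap describes a gene and is no test.

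**Figure D1:**
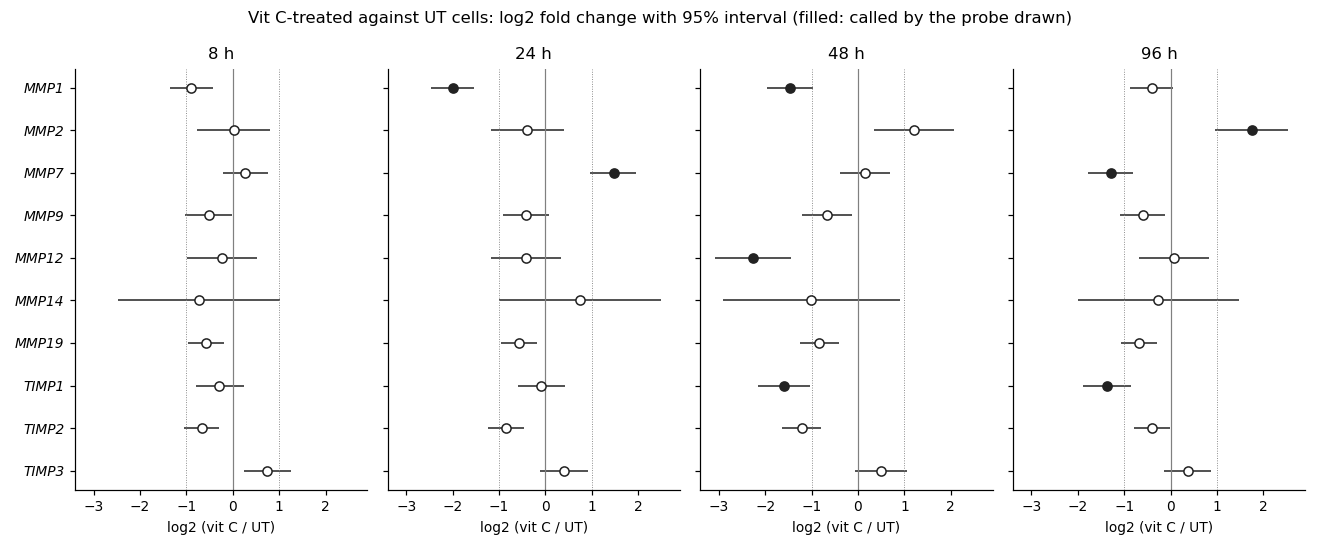
Log2 fold change of vit C-treated against UT cells for each member (brightest probe) at 8, 24, 48 and 96 h, with the 95% interval of the limma fit; filled points were called by the probe drawn and dotted lines mark a log2 fold change of 1 either way. MMP1 is lowest at 24 h, MMP12 lies at -2.27 at 48 h and MMP2 at 1.75 at 96 h, and MMP14 has the widest intervals.

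MMP1 cleaves fibrillar collagens. In UT cells its level was 3.92 and 4.21 at 8 h, 6.45, 5.98 and 6.13 at 24 h, 7.02 and 7.19 at 48 h, and 3.35, 3.07 and 3.53 at 96 h. In vit C-treated cells it was 3.26, 3.00 and 3.24 at 8 h, 4.00 and 4.39 at 24 h, 5.65 and 5.63 at 48 h, and 3.09 and 2.73 at 96 h. Every vit C array was below every UT array at 8, 24 and 48 h, and the arrays overlapped at 96 h. MMP1 fell with vit C 3.99-fold at 24 h, by 2.00 on the log2 scale (SE 0.22, q = 0.000454), and 2.76-fold at 48 h, by 1.47 (SE 0.24, q = 0.00428). The difference was -0.90 at 8 h (SE 0.22, q = 0.0846) and at 96 h -0.41 (SE 0.22, q = 0.227).

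MMP1 was the only member whose fall, averaged over the 4 times, passed both limits (-1.19, SE 0.11, q = 1.86e-05), and without the 96 h arrays the average was -1.45 (q = 2.85e-05). Leaving out UT replicate 2 of 48 h gave -1.38 (q = 0.0551) at that time, so that call was lost. With the slide as a term, an adjustment that rests on UT cells of 96 h, the only group on both slides 1 and 2, the values were -1.94 (q = 0.117) at 24 h and -1.40 (q = 0.269) at 48 h. From 8 to 24 h MMP1 rose by 2.13 (SE 0.22, q = 9.42e-05) in UT cells and by 1.03 (SE 0.22, q = 0.00926) in vit C-treated cells. From 8 to 48 h it rose by 3.04 (SE 0.24, q = 1.74e-06) in UT cells and by 2.48 (SE 0.22, q = 2.22e-06) in vit C-treated cells, and at 96 h was below its 8 h mean by 0.74 and 0.26, neither called.

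Of the gelatinases, which cleave denatured and basement-membrane collagen, MMP2 was read at a low signal. Its level was -1.42 and -1.63 in UT cells at 8 h, -2.50, -1.88 and -1.69 at 24 h, -2.83 and -3.06 at 48 h, and -1.94, -2.02 and -3.12 at 96 h. With vit C it was -1.31, -1.64 and -1.55 at 8 h, -1.87 and -2.96 at 24 h, -1.74 and -1.76 at 48 h, and -0.74 and -0.47 at 96 h. The groups overlapped at 8 and 24 h, and all vit C arrays were above all UT arrays at 48 and 96 h. MMP2 rose 3.37-fold at 96 h, by 1.75 on the log2 scale (SE 0.37, q = 0.013), and at 48 h the log2 difference was 1.20 (SE 0.40, q = 0.129), which was 0.65 with normexp background correction. The 96 h call was lost without either vit C array of that time, at 1.89 (q = 0.0743) without replicate 1 and 1.62 (q = 0.142) without replicate 2.

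Of 6 fibroblast markers, DCN and LUM were called higher with vit C at 48 and 96 h, COL3A1 lower at 96 h, and COL1A1, COL1A2 and PDGFRA were not called. Their summed linear level (6 genes, 1 being the 75th percentile of an array) was 0.77 to 0.779 in UT and 0.632 to 0.902 in vit C-treated cells at 8 h, and 1.25 to 1.59 and 2.26 to 2.75 at 24 h, where MMP2 had a log2 fold change of -0.39 (q = 0.552). It was 4.59 to 4.67 in UT and 5.62 to 6.34 in vit C-treated cells at 48 h, and 1.52 to 3.39 and 5.67 to 6.21 at 96 h. DCN, a matrix proteoglycan, rose by 2.35 at 48 h (SE 0.42, q = 0.00824) and by 2.48 at 96 h (SE 0.38, q = 0.00189). LUM, another matrix proteoglycan, was never well above background in UT cells. With vit C its level at 48 h was higher by a factor of at least 2.28 (q = 0.000119), at 96 h by at least 6.18 (q = 1.06e-06), while COL1A2 was not well above background on any array. COL1A1 was well above background on no UT array, but on 1 vit C array of 24 h and on 2 each of 48 and 96 h. The COL3A1 call was through a dimmer probe, and its brightest was not well above background on any vit C array. In UT cells the sum was higher at 48 than at 8 h, whereas MMP2 was called lower. The part of these genes in the MMP2 difference was not tested.

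MMP9, gelatinase B and the classical secreted gelatinase of macrophages, gave 94700 to 331000 signal units before normalization. Its level was 8.96 and 9.18 in UT cells at 8 h, 10.08, 9.50 and 9.85 at 24 h, 9.22 and 9.23 at 48 h, and 7.97, 8.00 and 7.54 at 96 h. With vit C it was 8.45, 8.45 and 8.75 at 8 h, 9.68 and 9.12 at 24 h, 8.48 and 8.64 at 48 h, and 7.35 and 7.12 at 96 h. The arrays did not overlap at 8, 48 and 96 h, with the vit C arrays lower. The log2 fold changes lay between -0.66 and -0.42 and none was called, and their average was -0.55 (SE 0.12, q = 0.00792), under the fold limit. From 8 to 96 h MMP9 fell by 1.23 (SE 0.23, q = 0.00147) in UT cells and by 1.32 (SE 0.23, q = 0.000722) in vit C-treated cells.

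MMP7, a small secreted enzyme, degrades a wide range of matrix and cell-surface proteins. In UT cells its level was 1.19 and 0.95 at 8 h, 3.73, 3.71 and 3.46 at 24 h, 5.37 and 5.59 at 48 h, and 4.39, 4.16 and 4.95 at 96 h. In vit C-treated cells it was 1.51, 1.23 and 1.29 at 8 h, 4.92 and 5.28 at 24 h, 5.73 and 5.54 at 48 h, and 3.26 and 3.16 at 96 h. The vit C arrays were all higher at 8 and 24 h, overlapped the UT arrays at 48 h and were all lower at 96 h. MMP7 rose with vit C 2.76-fold at 24 h, by 1.47 (SE 0.23, q = 0.0071), and fell 2.45-fold at 96 h, by 1.29 (SE 0.23, q = 0.00481). At 8 and 48 h the log2 fold changes were 0.27 and 0.16, neither called.

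The 4 vit C effects differed from each other for MMP7 by a limma F test (q = 0.00594), the only 1 of the 10 members with that call here, which 1.37% of all genes received. MMP1 joined it under quantile normalization and with the percentile of detected probes, and MMP1, MMP12 and TIMP1 did with normexp background correction and without UT replicate 3 of 96 h. Relative to 8 h, the effect was 1.20 higher at 24 h (SE 0.32) and 1.56 lower at 96 h (SE 0.32). When the 96 h arrays were left out of the test, the difference between the other 3 effects was not called (q = 0.236). Single calls were also lost, at 24 h without vit C replicate 2 (1.29, q = 0.103) and with the slide as a term (1.30, q = 0.371), and at 96 h without vit C replicate 2 (-1.24, q = 0.0645).

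Over time MMP7 rose more than any other member: from 8 to 48 h it rose 21.2-fold in UT cells, by 4.41 (SE 0.25, q = 9.06e-08), and 19.7-fold in vit C-treated cells, by 4.30 (SE 0.23, q = 2.02e-08). It was still above its 8 h level at 96 h, by 3.43 (SE 0.23, q = 1.45e-07) in UT cells and by 1.87 (SE 0.23, q = 2.99e-05) in vit C-treated cells.

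MMP12 degrades elastin. Its level in UT cells was -0.64 and -0.19 at 8 h, 2.18, 1.70 and 1.83 at 24 h, 0.91 and 1.23 at 48 h, and -4.22, -3.67 and -2.80 at 96 h. With vit C the values were -0.65, -0.70 and -0.60 at 8 h, 1.23 and 1.74 at 24 h, -1.15 and -1.25 at 48 h, and -3.10 and -3.87 at 96 h. The groups overlapped at 8, 24 and 96 h and stood apart at 48 h. There MMP12 fell 4.83-fold with vit C, a log2 fold change of -2.27 (SE 0.38, q = 0.00582). The call was lost without UT replicate 2 of 48 h (-2.11, q = 0.0659) and was kept with the slide as a term (-3.20, q = 0.04).

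The second probe of MMP12 gave -2.05 at 48 h (SE 0.70, q = 0.135). At 96 h the brightest probe gave 0.08 (q = 0.905), which turned to -0.40 under normexp background correction, and 0.46 without UT replicate 3. The dimmer probe was then called higher with vit C (q = 0.00459), but both remaining UT arrays were not well above background there, and the bound these leave is under 1-fold, so no fold is given. MMP12 had the widest range of group means of the 10 members, 44.4-fold between UT cells of 24 h and of 96 h. It rose from 8 to 24 h by 2.32 (SE 0.35, q = 0.00189) in UT cells and by 2.14 (SE 0.35, q = 0.00168) in vit C-treated cells, and at 96 h it stood at -3.15 (SE 0.35, q = 1.48e-05) and -2.84 (SE 0.35, q = 3.14e-05) relative to 8 h.

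MMP14, a membrane-anchored enzyme that activates the proenzyme of MMP2, varied most between arrays of a group. Its level was 4.79 and 4.04 in UT cells at 8 h, 3.50, 3.84 and 4.00 at 24 h, 4.83 and 5.51 at 48 h, and 5.27, 2.99 and 1.00 at 96 h. With vit C it was 3.69, 3.59 and 3.78 at 8 h, 3.82 and 5.24 at 24 h, 4.18 and 4.15 at 48 h, and 2.92 and 2.73 at 96 h. The 3 UT arrays of 96 h spanned nearly the whole range of the gene, with the highest on slide 1 and the others on slide 2. No vit C effect was called: the log2 fold changes lay between -1.01 and 0.75 with SEs of 0.81 to 0.89, so that a change of 2.91 lower at 48 h or 2.49 higher at 24 h was still within the 95% intervals. With the slide as a term the values at 8 and 48 h turned to 2.54 and 2.28 and that at 24 h went to 4.02 (q = 0.158), beyond that interval, none of them called, and at 96 h the value was 0.82 without UT replicate 1.

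MMP19, a secreted enzyme that cleaves basement-membrane proteins, was read by 3 probes. By the brightest its level was 2.85 and 3.03 in UT cells at 8 h, 3.59, 3.58 and 3.65 at 24 h, 3.14 and 2.86 at 48 h, and 0.62, 0.78 and 0.78 at 96 h. With vit C it was 2.10, 2.49 and 2.50 at 8 h, 3.10 and 2.97 at 24 h, 2.06 and 2.28 at 48 h, and 0.07 and 0.03 at 96 h. The vit C arrays lay below the UT arrays at each of the 4 times. The log2 fold changes were -0.58, -0.57, -0.83 and -0.68, all under the fold limit, with an average of -0.66 (SE 0.09, q = 0.000407).

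At 96 h MMP19 was called lower by 1 of its 3 probes alone (-1.15, SE 0.27, q = 0.0211). That call was lost with normexp background correction, with the replicate number as a block, and without UT replicate 2 or vit C replicate 1 of 96 h. From 8 to 96 h the brightest probe fell by 2.21 (SE 0.18, q = 8.11e-07) in UT cells and by 2.31 (SE 0.18, q = 3.96e-07) in vit C-treated cells.

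**Figure D2:**
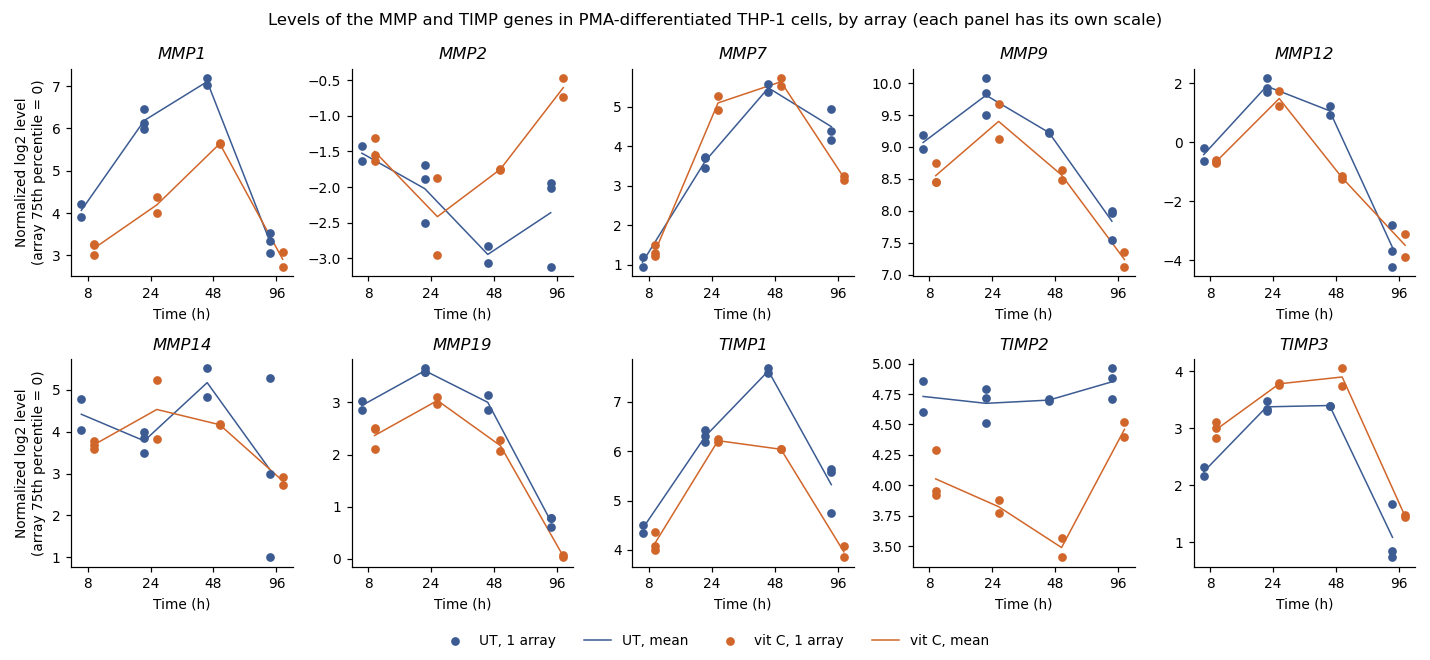
Normalized log2 level of each member by array against time after vit C addition, with UT cells in blue and vit C-treated cells in orange; points are single arrays, lines join group means, and each panel has its own scale. MMP1, MMP7, MMP12 and TIMP1 reached their highest means at 24 or 48 h, and the 3 UT arrays of MMP14 at 96 h lie at 5.27, 2.99 and 1.00.

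TIMP1 inhibits most secreted MMPs. Its level in UT cells was 4.35 and 4.51 at 8 h, 6.18, 6.31 and 6.43 at 24 h, 7.68 and 7.58 at 48 h, and 5.57, 5.65 and 4.75 at 96 h. In vit C-treated cells it was 4.07, 3.99 and 4.36 at 8 h, 6.18 and 6.25 at 24 h, 6.04 and 6.04 at 48 h, and 4.07 and 3.85 at 96 h. The groups overlapped at 8 and 24 h and stood apart at 48 and 96 h, where the vit C arrays were lower. The vit C arrays of 48 h, on different slides, read the same to 2 decimals.

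TIMP1 fell with vit C 3.01-fold at 48 h, by 1.59 (SE 0.26, q = 0.00496), and 2.57-fold at 96 h, by 1.36 (SE 0.24, q = 0.00459), and its log2 fold changes were -0.29 at 8 h and -0.09 at 24 h, the latter turning to 0.02 with normexp background correction. No left-out array removed the 48 h call. It was lost with the slide as a term (-1.22, q = 0.411), and the 96 h call without vit C replicate 2 of 96 h (-1.25, q = 0.0707). In UT cells TIMP1 rose from 8 to 48 h by 3.20 (SE 0.26, q = 2.84e-06). In vit C-treated cells it rose by 2.08 at 24 h (SE 0.24, q = 0.000108) and by 1.90 at 48 h (SE 0.24, q = 6.33e-05).

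TIMP2 inhibits MMP2 and, together with MMP14, takes part in the activation of its proenzyme. By its brightest probe the level in UT cells was 4.86 and 4.60 at 8 h, 4.72, 4.51 and 4.79 at 24 h, 4.71 and 4.69 at 48 h, and 4.96, 4.71 and 4.88 at 96 h. With vit C it was 3.92, 3.95 and 4.29 at 8 h, 3.77 and 3.88 at 24 h, 3.41 and 3.57 at 48 h, and 4.52 and 4.40 at 96 h. At every time all vit C arrays were below all UT arrays. The log2 fold changes were -0.67, -0.85, -1.21 and -0.39 (SE 0.18 to 0.20), and with normexp background correction TIMP2 was called at 24 h (-1.01, q = 0.003).

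A second probe listed under the name TIMP2 carries another accession and may measure a gene that overlaps TIMP2. It was well above background on 13 of the 19 arrays and differed in sign at 8 and 48 h, so it alone took TIMP2 out of those tests. With such genes kept, q was 0.133, 0.0368, 0.00597 and 0.183 at 8, 24, 48 and 96 h, and the average of -0.78 (SE 0.09) had q = 0.00015. The second probe gave 1.12 at 48 h (SE 0.58, q = 0.425). In UT cells TIMP2 stood within 0.12 of its 8 h mean at the later times.

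**Figure D3:**
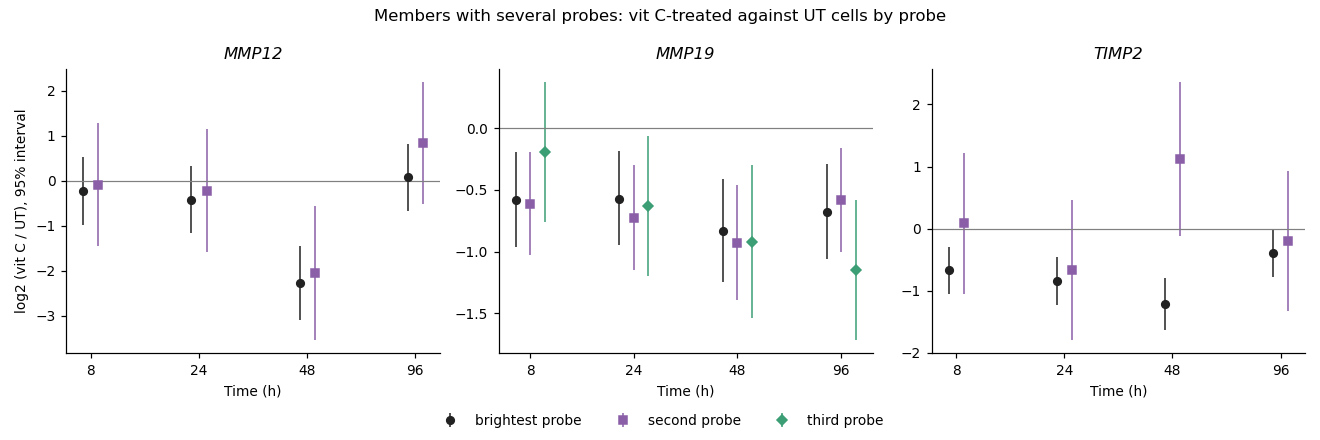
Log2 fold change of vit C-treated against UT cells by probe for MMP12, MMP19 and TIMP2, with 95% intervals, against time. The probes of MMP12 and of MMP19 lie on the same side of 0 at 8, 24 and 48 h, whereas those listed under TIMP2, of which the dimmer may measure another gene, lie apart at 48 h, at -1.21 and 1.12.

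TIMP3, the inhibitor held in the extracellular matrix, went the other way. Its level was 2.16 and 2.32 in UT cells at 8 h, 3.31, 3.48 and 3.34 at 24 h, 3.40 and 3.40 at 48 h, and 1.68, 0.85 and 0.74 at 96 h. With vit C it was 3.11, 3.00 and 2.83 at 8 h, 3.76 and 3.80 at 24 h, 4.05 and 3.75 at 48 h, and 1.48 and 1.44 at 96 h. The vit C arrays were all higher at 8, 24 and 48 h and lay within the UT arrays at 96 h. The log2 fold changes of 0.74, 0.41, 0.50 and 0.37 were not called (q = 0.189 to 0.39), and their average was 0.50 (SE 0.12, q = 0.0161), under the fold limit. From 8 to 96 h TIMP3 fell by 1.15 (SE 0.24, q = 0.00316) in UT cells, a call lost without UT replicate 3 of 96 h and on slide 1 alone (-0.55, q = 0.0807), and by 1.52 (SE 0.24, q = 0.000297) in vit C-treated cells.

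Within UT cells, 6 of 9 members tested were called at 24 h against 8 h, all higher (2.65% of all genes), and 6 of 10 at 48 h, 5 higher and MMP2 lower by 1.42 (SE 0.40, q = 0.0373; 8.93% of all genes). The 24 h call of MMP19 rested on the probe that was called at 96 h with vit C (1.07, q = 0.0431) and was lost without any 1 of the UT arrays of 8 or 24 h, and that of TIMP3 without either UT array of 8 h or UT replicate 2 of 24 h. The 48 h call of MMP2 was lost with the percentile of detected probes, with normexp and with the replicate block. At 48 h only MMP1, MMP7 and TIMP1 kept their calls without each UT array of 8 and 48 h in turn. At 96 h 5 of 9 were called, MMP7 higher and MMP9, MMP12, MMP19 and TIMP3 lower (16.1% of all genes). Without UT replicate 1 of 96 h MMP14 was called too, and without replicate 3 TIMP1 was called and TIMP3 was not. Within vit C-treated cells, 4 of 10 were called at 24 h, all higher (5.62% of all genes; MMP1 was not without vit C replicate 2 of 8 h or of 24 h, nor with quantile normalization, the percentile of detected probes or normexp), 3 of 10 at 48 h, all higher (13.1%), and 5 of 9 at 96 h, the same names and directions as in UT cells (28.9%). The 24 and 48 h comparisons of UT cells and the 24 h comparison of vit C-treated cells lay within 1 slide each, while vit C-treated cells at 96 h differed from those at 8 h in slide and scan day.

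**Figure D4:**
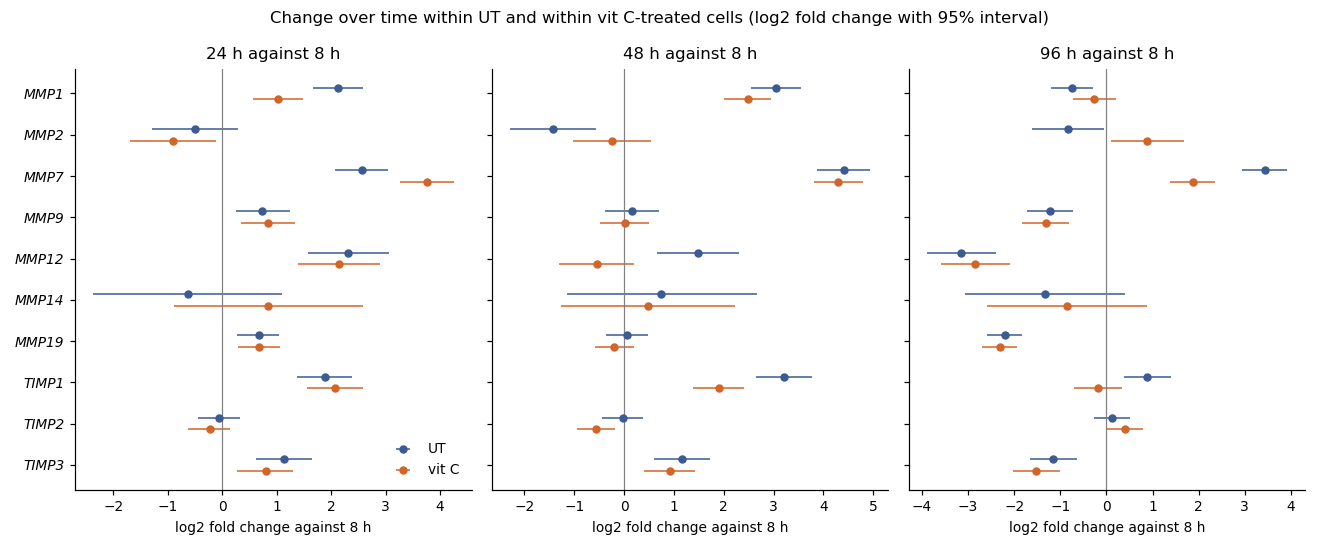
Log2 fold change of each member at 24, 48 and 96 h against 8 h, within UT cells (blue) and within vit C-treated cells (orange), with 95% intervals of the limma fit. MMP7 was 4.41 and 4.30 higher at 48 h, and MMP12 was at -3.15 and -2.84 at 96 h, in UT and vit C-treated cells.

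Differences taken within an array are free of any shift of that whole array, though not of quantile normalization, under which MMP9 and TIMP1 at 24 h had log2 fold changes of -0.06 and -0.05. The level of MMP2 minus that of TIMP2 changed with vit C by 0.70, 0.46, 2.41 and 2.14 at 8, 24, 48 and 96 h, without overlap of arrays at 8, 48 and 96 h, and with normexp the 48 h changes of MMP2 and TIMP2 were 0.65 and -1.02. MMP7 minus TIMP1 changed by 0.56, 1.55, 1.75 and 0.07, overlapping at 96 h, and MMP1 minus TIMP1 by -0.61, -1.91, 0.12 and 0.95, overlapping at 48 h. MMP9 minus TIMP1 changed by -0.23, -0.33, 0.93 and 0.76, overlapping at 24 h. These values describe unequal change of 2 transcripts, with no test, and say nothing of protein or enzyme activity.

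**Figure D5:**
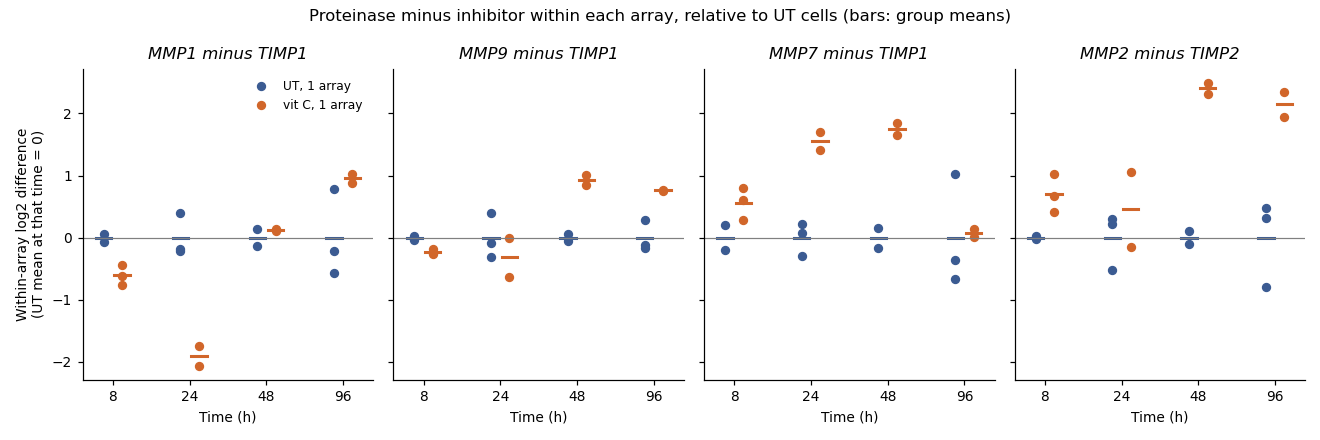
Within-array log2 difference between a proteinase and an inhibitor, by array and time, with the UT mean at each time set to 0; points are arrays and bars are group means. MMP2 minus TIMP2 lies 2.41 and 2.14 above UT cells at 48 and 96 h, and MMP1 minus TIMP1 lies at -1.91 at 24 h and 0.95 at 96 h.

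Across the 8 group means, the closest pairs of members were MMP9 and MMP19 (r = 0.98), MMP9 and MMP12 (r = 0.96) and MMP12 and MMP19 (r = 0.95), and the most opposed were MMP2 and TIMP1 (r = -0.86). MMP1 and TIMP1 had r = 0.88. Among 17291 other genes well above background on all arrays, the profiles most like that of MMP12 were those of PRO2266 (r = 0.995), CYP27B1 and RAP2C (r = 0.993 each), and those most like MMP7 were SCG5, NP450512 (r = 0.975 each) and AK123333 (r = 0.968). These are descriptions over 8 points that share arrays and times.

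A further list of 17 genes held other MMPs and TIMP4, all on the array and 11 well above background in at least 1 group. By limma 1 of the 17 was called at 8 h, none at 24 and 48 h, and 1 at 96 h, each lower. The 96 h call was of a gene not well above background on any array. Of all genes 0.553% were called at 8 h and 12.8% at 96 h. As the 96 h share moves with the processing and with single arrays, 1 of 17 is not ranked against it. MMP3, stromelysin 1, which activates other MMPs, was not well above background on any vit C array of 8 h and was at least 1.47-fold lower there (q = 0.0149). Within UT cells the calls among these 17 numbered 3, 3 and 6 for 24, 48 and 96 h against 8 h (2.65%, 8.93% and 16.1% of all genes). MMP3, MMP8 and MMP10 were higher at each of these times, and at 96 h MMP15 was also higher, and MMP21 and TIMP4 lower.

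Of 20 ADAM and ADAMTS proteases, relatives of the MMPs that shed surface proteins or cleave proteoglycans, 0, 1, 2 and 4 were called at 8, 24, 48 and 96 h (0.553%, 1.68%, 3.65% and 12.8% of all genes). Of the 4 at 96 h 1 was higher and 3 were lower, and 1 was not well above background in any group. ADAM12, a membrane-anchored protease, rose by 1.57 at 48 h (SE 0.39, q = 0.0405). ADAMTS1, an aggrecan-cleaving protease, fell by 1.84 at 24 h (SE 0.20, q = 0.000463) and by 2.00 at 48 h (SE 0.22, q = 0.000395), the times at which MMP1 fell. Of 10 cathepsins, lysosomal proteases of which 9 were on the array, 1 was called at 48 h, CTSH lower by 1.11 (q = 0.00548), and 1 at 96 h, CTSK, a collagen-degrading cathepsin, higher by 1.06 (q = 0.0102), where 12.8% of all genes were called.

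Among 19 genes of plasminogen activation and other regulators of MMPs, 0, 1, 4 and 1 were called at the 4 times. Of all genes 0.553%, 1.68%, 3.65% and 12.8% were. For the same reason 1 of 19 at 96 h is not ranked against 12.8%, a share that moves with the processing. PLAU, the urokinase that generates plasmin, an activator of proMMPs, rose by 1.46 at 48 h (SE 0.21, q = 0.0022), and PLAT, the tissue-type activator, by 1.91 (SE 0.46, q = 0.035). A2M, a general protease inhibitor that traps MMPs, fell by 1.08 at 48 h (SE 0.20, q = 0.00949) and by 1.15 at 96 h (SE 0.18, q = 0.00217). SERPINB2, an inhibitor of plasminogen activators, rose by 1.70 at 24 h (SE 0.28, q = 0.00854) and was also called higher at 48 h, not through its brightest probe (0.87, q = 0.145).

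Among 20 cytokines and transcription factors known to regulate MMPs, 1, 1, 1 and 3 were called, beside the same shares of all genes. The 3 of 20 at 96 h stand beside 12.8%, a share that moves with the processing and with single arrays. No reading is drawn from their difference. The call at 48 h was PPARG, a nuclear receptor, which rose by 1.11 (SE 0.26, q = 0.0289). OSM, oncostatin M, an inducer of MMP1 and TIMP1, fell by 1.40 at 8 h (SE 0.18, q = 0.00553), by 1.37 at 24 h (SE 0.18, q = 0.00167) and by 1.61 at 96 h (SE 0.18, q = 0.000138), with a value of -0.38 at 48 h (q = 0.361). FOSB, a subunit of AP-1, fell by 2.29 at 96 h (SE 0.28, q = 0.000337). Of 12 macrophage markers, MSR1 and ITGAM were called lower at 48 h and MSR1 lower and LYZ higher at 96 h, and no marker was called at 8 or 24 h. The part of these genes in the changes of MMPs and TIMPs was not tested.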

How the data were processed

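Total RNA of 19 flasks was labelled with Cy3 by the authors and hybridised to Agilent human arrays, after samples of poor RNA integrity had been left out. Groups follow the sample labels. The deposited scanner files hold each spot's intensity, which, per the file headers, Agilent Feature Extraction 10.5.1.1 background-subtracted. The authors also deposited log2 values shifted to each array's 75th percentile, which matched the log2 intensities computed here.

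Outlier spots were left out, spots of a probe averaged, and 1 limma model (limma 3.58.1, R 4.3.3) of 8 group means was fitted to log2 intensity minus the array's 75th percentile over 50238 probes. Calls needed a log2 fold change of 1 or more either way and a Benjamini-Hochberg adjusted p (q) no higher than 0.05. Genes with probes of opposite sign were removed in each comparison, following the methods. The fit was tested on simulated data.

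The members and gene lists were chosen with earlier results of these data known. All members are named. Of the other lists only some of the called genes are named, with no fixed number a time. The number of arrays limits the precision. Alternatives were normalization, background correction, dim and opposing probes, slide and replicate blocks, the deposited log2 values, the methods' t-test and each array left out. Figures used matplotlib 3.10.9. The authors' fold changes were not used.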

Additional observations from a re-analysis of the deposited data

Results flagged for a closer look

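The vit C effect on MMP7 differed between the 4 times by a limma F test over all probes (q = 0.00594). The log2 fold change was 1.47 at 24 h and -1.29 at 96 h, with all vit C arrays above the UT arrays at 24 h and all below them at 96 h. Both vit C arrays of 96 h lay on a slide of their own that was scanned on another day, and without the 96 h arrays q was 0.236.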

How the results depend on the processing

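The 14 reversals among single members were all of values that had not been called. At 8 h MMP2 turned to -0.02 with quantile normalization and ranged from -0.08 to 0.12 over single arrays left out, MMP14 turned to 2.54 and TIMP1 to 0.08 with the slide as a term. At 24 h MMP2 turned to 0.24 and TIMP1 to 0.28 with the slide, TIMP1 to 0.02 with normexp, and MMP2 ranged from -0.94 to 0.16 over left-out arrays. At 48 h MMP14 turned to 2.28 with the slide. At 96 h MMP12 turned to -0.40 with normexp and ranged from -0.31 to 0.46 over left-out arrays, and MMP14 from -1.31 to 0.82; the cause was not tested. Of the other single-member values, 506 kept direction and call, 19 lost a call and 1 gained one. This tally covers the brightest probe with vit C against UT, with opposing probes removed and only arrays of the time compared left out. Outside it, TIMP2 was called at 48 h with opposing probes kept. Without UT replicate 3 of 96 h, MMP2 was called at 48 h and MMP12, through its dimmer probe, at 96 h.

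Counts of called members moved as follows. With the slide as a term 0 were called at 24 h and 1 at 48 h. The methods' t-test called 0 at 24, 48 and 96 h, 0 in UT cells at 24 and 48 h, 1 at 96 h and 0 in vit C-treated cells at 24 h. The F test called 2 members under quantile normalization, 2 with the percentile taken from detected probes only, 4 with normexp, and 0 without 96 h, the last chosen after seeing the data, as were the average without 96 h and the slide 1 comparison of UT cells. Over left-out arrays the counts ranged from 1 to 2 at 24 h, 1 to 3 at 48 h, 1 to 5 at 96 h, 1 to 4 for the F test and 3 to 4 in UT cells at 48 h. With the slide as a term 8, 20 and 142 genes of the whole array were called at 8, 24 and 48 h, and the t-test called 12, 0, 4 and 0 at the 4 times, against 139, 438, 928 and 3374. Over left-out arrays these counts ranged from 13 to 81, 90 to 364, 283 to 538 and 469 to 5997. The counts were 208, 251, 465 and 805 with normexp, 178, 560, 1166 and 1002 with quantile normalization, 141, 455, 954 and 1452 with the percentile of detected probes, 167, 545, 1079 and 1086 without dim probes, and 48, 427, 783 and 1203 with the replicate block.

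The replicate block left 2, 3 and 3 members called at 24, 48 and 96 h and 1 on average, MMP19 losing its 96 h call. Deviations of same-numbered arrays from their group means had r = -0.12 to 0.1 over 8 pairs. In a group of 2 arrays the deviations mirror each other, so these values are not independent and decide little about pairing. The replicate numbers were not taken as pairs. They come from the sample titles, and the description labels number the 48 h arrays otherwise. The median log2 fold change of all probes was -0.14 at 96 h and -0.45 with normexp, and -0.18 and -0.26 at 24 h. Slide could not be fitted as a term at 96 h.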
